A study of Mus musculus with 4 samples.

Results

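The tumour necrosis factor (TNF) ligands, their receptors and the adaptor proteins that the receptors recruit were followed in mouse CD4+ T cells that carried a Tox2 retrovirus or a control retrovirus. Members were taken by symbol: every gene named Tnfrsf or Tnfsf with a number, and 17 genes of the superfamily with other names or of its TRAF and death-domain adaptors. This gave 38 of the 11027 genes listed, made up of 13 ligands, 18 receptors and 7 adaptors, and all 38 passed the filter on low counts. Of the 17 genes named singly 15 were measured, while Cd40 and Ltbr were not analysed here.

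RNA-seq was measured in 1 library for each of 4 groups: Tox2 virus in Tfh-like culture, Tox2 virus in Th0 culture, GFP virus in Tfh-like culture and GFP virus in Th0 culture. Spleens and lymph nodes of wild type C57BL/6 mice, 7 to 8 weeks old, gave the naive cells, which were stimulated and transduced in neutral medium and sorted for GFP before culture. The Tox2 virus carried Tox2, an HMG-box DNA-binding protein, with GFP, and the control virus carried GFP only. IL-6 was added in the Tfh-like culture only, while IL-2, IL-4 and IFN-gamma were blocked by antibodies in both cultures. The design thus sets forced Tox2 beside its control with and without a cytokine that favours T follicular helper (Tfh) cells. How many mice gave the cells, and whether they were pooled, is not given in the sources used here. Total counts were between 13015283 and 13673774 per library. Tox2 itself had 32246 and 35297 counts in the Tfh-like and Th0 libraries with the Tox2 virus, against 851 and 144 with the GFP virus. All 7 CD4+ T-cell markers were measured, and their summed level was 4741 to 4915 CPM in every library. Single markers could differ in opposite ways with the virus. Cd4 had 21364 and 24305 counts in Tfh-like and Th0 with Tox2, against 14423 and 17253 with GFP. Cd5 had 8089 and 7862 with Tox2, against 12537 and 11858 with GFP.

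TNF superfamily ligands are mostly trimeric membrane proteins that cluster their receptors. Receptors without a death domain recruit TRAF adaptors and signal to NF-kB, which in T cells sustains division and survival after the first antigen signal. Receptors with a death domain, such as Fas, bind FADD or TRADD and can start caspases. In the follicle, CD40 ligand on Tfh cells is the signal that B cells need for the germinal centre, and OX40 is among the receptors known to shape Tfh numbers.

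The sequence before the start site is shown for the members with the largest rise and the largest fall with the culture, Tnfrsf8 and Tnfrsf13c, and for Fas and Fasl, a receptor and its ligand that moved in opposite directions. Each is the 250 bases before the RefSeq start (GRCm38.p6), 5′ to 3′ on the gene's strand, and capitals mark the motif matches described after the sequences.
Tnfrsf8 (chr4:145315165-145315414, minus strand): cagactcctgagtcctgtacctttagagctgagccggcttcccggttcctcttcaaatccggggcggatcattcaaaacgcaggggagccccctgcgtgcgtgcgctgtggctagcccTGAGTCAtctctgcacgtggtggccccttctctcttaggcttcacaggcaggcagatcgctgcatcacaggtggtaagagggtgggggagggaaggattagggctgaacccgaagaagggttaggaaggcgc
Tnfrsf13c (chr15:82224381-82224630, minus strand): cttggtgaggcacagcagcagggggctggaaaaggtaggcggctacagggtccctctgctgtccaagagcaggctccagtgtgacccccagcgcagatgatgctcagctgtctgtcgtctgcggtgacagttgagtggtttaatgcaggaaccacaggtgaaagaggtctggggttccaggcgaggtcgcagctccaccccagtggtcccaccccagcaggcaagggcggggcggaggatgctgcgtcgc
Fas (chr19:34290409-34290658, plus strand): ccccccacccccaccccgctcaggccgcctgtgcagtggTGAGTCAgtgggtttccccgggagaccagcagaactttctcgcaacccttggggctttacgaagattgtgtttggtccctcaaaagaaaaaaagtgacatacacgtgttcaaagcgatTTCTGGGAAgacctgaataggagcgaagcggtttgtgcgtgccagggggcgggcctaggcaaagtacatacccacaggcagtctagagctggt
Fasl (chr1:161788496-161788745, minus strand): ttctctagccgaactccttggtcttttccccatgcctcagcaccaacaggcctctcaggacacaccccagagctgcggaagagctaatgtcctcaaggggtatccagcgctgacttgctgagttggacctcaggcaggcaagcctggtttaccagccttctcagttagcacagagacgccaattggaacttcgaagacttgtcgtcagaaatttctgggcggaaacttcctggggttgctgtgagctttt
In all, 3 motifs were searched on both strands: TTCNNNGAA, the spaced repeat that STAT factors bind, TGANTCA, bound by AP-1 factors, and a form of the NF-kB site, GGG and TTTCC with any 2 bases between them. The Tnfrsf8 window held 1 AP-1 match, which begins 132 bases before the start. The Fas window held an AP-1 match at 211 bases and a STAT match at 93 bases before the start, and the windows of Tnfrsf13c and Fasl held none of the 3 motifs. RefSeq promoters were at hand for 30 of the 38 members. These have 33 windows, of which 8 held a STAT match, 5 an AP-1 match and 4 an NF-kB match, against 7.02%, 6.75% and 1.41% of all 32851 windows of the same length. A match is only a run of letters and does not show binding.

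Levels between genes are compared per length, as the FPKM that the authors deposited. The family covers a wide range in these cells. Tnfrsf4, which encodes OX40, a costimulatory receptor of activated T cells, stood highest with a mean of 274 FPKM, followed by Ltb (194), the membrane-bound subunit of lymphotoxin, Tnfrsf18 (156), encoding GITR, and Tnfrsf9 (142), encoding 4-1BB. Over the libraries they ranged from 202 to 369 FPKM for Tnfrsf4, 135 to 253 for Ltb, 124 to 195 for Tnfrsf18 and 92.1 to 186 for Tnfrsf9. Each range overlapped that of the next gene in this order, but that of Tnfrsf4 lay above those of Tnfrsf18 and Tnfrsf9. Next were Tnfsf11 (mean 62.5 FPKM), encoding RANKL, Cd40lg (47.7), encoding CD40 ligand, and Cd27 (41.6). At the low end, the BAFF gene Tnfsf13b had 0.231 to 1.25 FPKM, Tnfrsf21, encoding the death receptor DR6, 0.216 to 0.784 FPKM and Tnfrsf12a 1.06 to 2.14 FPKM. The median of the means was 15.5 FPKM for the members and 7.14 FPKM for all genes listed. By role it was 18.5 FPKM for ligands, 14.1 for receptors and 9.43 for adaptors. Together the 38 genes took 0.378% and 0.337% of counts in Tfh-like and Th0 with Tox2, and 0.370% and 0.354% with GFP.

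**Figure D1:**
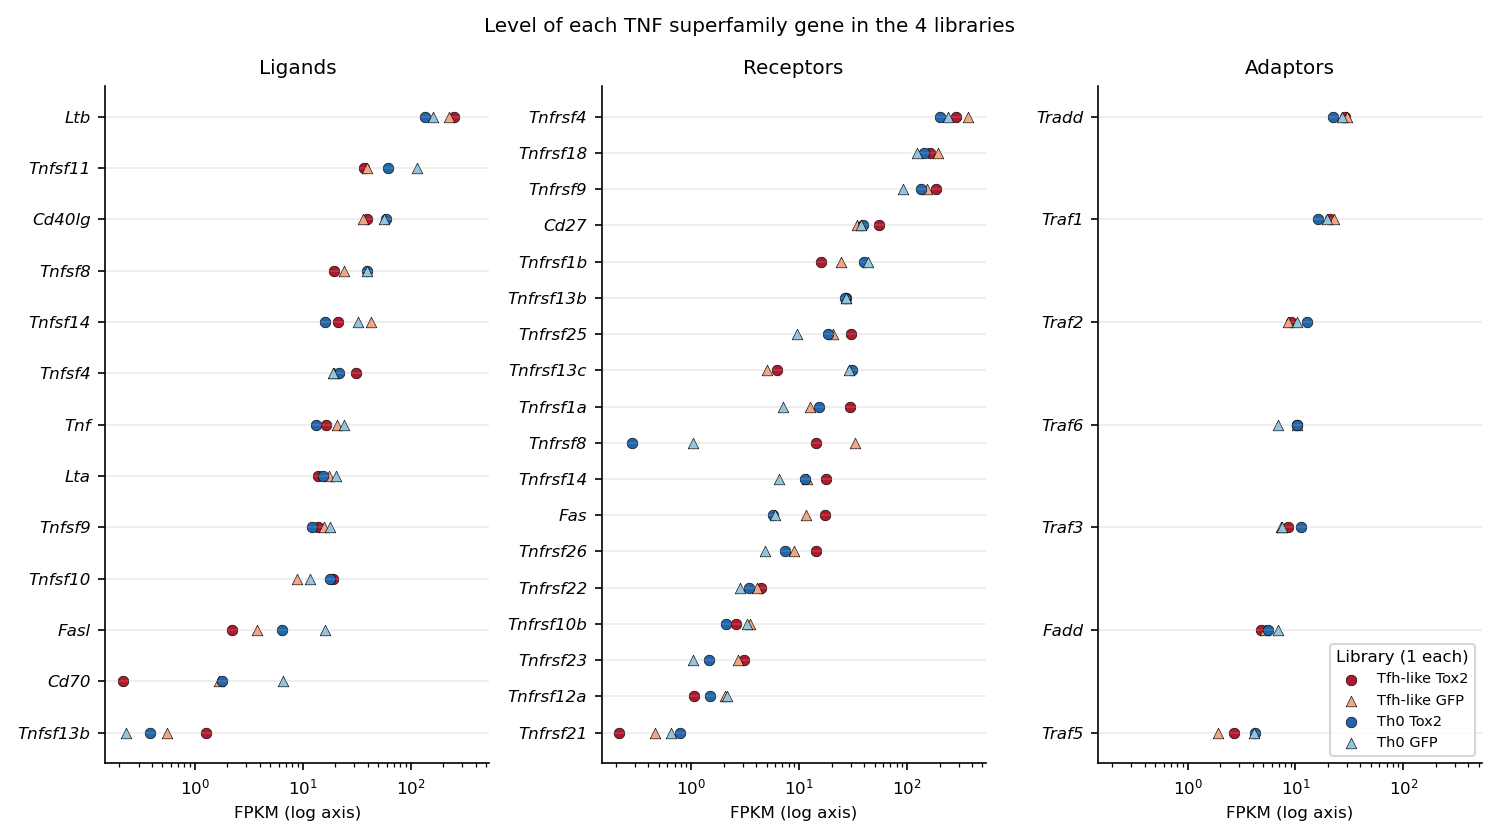
FPKM as deposited (log axis) of every member in each of the 4 libraries, by role, with 1 point per library. Tnfrsf8 has the widest spread, with 14.2 and 33.2 FPKM in the Tfh-like libraries against 0.285 and 1.04 FPKM in the Th0 libraries.

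The first comparison asked which members differed with the Tox2 virus over both cultures. Of 38 members 9 passed the additive test, where 6.81% of the 10960 genes tested did. The receptors Tnfrsf1a, Tnfrsf25, Tnfrsf14 and Tnfrsf26 and the ligand Tnfsf10 rose, and the ligands Cd70, Fasl and Tnfsf14 and the receptor Tnfrsf8 fell. Thus 5 rose and 4 fell, against 4.07% and 2.74% of all genes. The test is edgeR's quasi-likelihood test in a fit of virus plus culture, with Benjamini-Hochberg adjustment over all genes. Its only measure of spread is the 1 residual degree of freedom left by 4 libraries, moderated across genes, and no group has a replicate. In this layout that degree of freedom holds the difference of the Tox2 fold between the cultures. The SE and p thus cannot separate such a difference from noise. In bulk RNA, fewer cells that express a gene and less RNA per cell cannot be told apart. The median log2 fold was -0.03 over the members and 0.00 over all genes tested. An unadjusted p under 0.05 was found for 20 of the 38 members, against 3003 of the 10960 genes tested.

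Among the receptors, Tnfrsf1a had the largest rise. It encodes TNFR1, the widely expressed death-domain receptor for TNF (chromosome 6, 125349362 to 125362484, plus strand, GRCm38). In Tfh-like culture it had 1263 counts with Tox2 and 529 with GFP, and in Th0 culture 676 with Tox2 and 312 with GFP. Both Tox2 libraries lay above both GFP libraries. The log2 fold was 1.22 in Tfh-like (95% counting interval 1.07 to 1.37) and 1.06 in Th0 (0.87 to 1.27), and over both cultures 1.15 (SE 0.11, edgeR adjusted p = 0.00533), a 2.22-fold rise. Tnfrsf25 encodes DR3, the death-domain receptor for TL1A that costimulates T cells. It had 1147 counts with Tox2 and 765 with GFP in Tfh-like, and 721 with Tox2 and 372 with GFP in Th0. The log2 fold over both was 0.72 (SE 0.12, edgeR adjusted p = 0.0260). Its Th0 library with Tox2 lay below its Tfh-like library with GFP, so the Tox2 and GFP libraries overlap across cultures. Tnfrsf14 encodes HVEM, which binds LIGHT as well as the inhibitory receptor BTLA. Its counts were 424 with Tox2 and 275 with GFP in Tfh-like, and 279 with Tox2 and 158 with GFP in Th0, and it rose by 0.68 on the log2 scale (SE 0.14, edgeR adjusted p = 0.0420). Tnfrsf26, of the mouse cluster that also holds the decoy receptors for TRAIL, had 760 and 467 counts in Tfh-like with Tox2 and GFP, and 412 and 264 in Th0. It rose by 0.63 (SE 0.11, edgeR adjusted p = 0.0281). For both genes Tox2 was above GFP within each culture, but the Th0 library with Tox2 was, in CPM, below the Tfh-like library with GFP. The call for Tnfrsf14 was lost with DESeq2 (log2 fold 0.67, adjusted p = 0.220) and with the length trend removed (0.78, edgeR adjusted p = 0.0559), and that for Tnfrsf26 with DESeq2 (0.62, adjusted p = 0.131).

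Tnfrsf8 was the receptor that fell. It encodes CD30, a TRAF-binding receptor of activated lymphocytes (chromosome 4, 145267137 to 145315164, minus strand, GRCm38). Counts were 818 with Tox2 and 1868 with GFP in Tfh-like, and 17 with Tox2 and 61 with GFP in Th0. The log2 fold was -1.23 in Tfh-like (counting interval -1.35 to -1.11) and -1.77 in Th0 (-2.76 to -1.10), and -1.34 over both (SE 0.16, edgeR adjusted p = 0.00932). The fall with Tox2 was thus seen at 2 very different levels of the gene. The other 13 receptors did not pass. Tnfrsf9 had log2 folds of 0.27 in Tfh-like and 0.53 in Th0 (joint estimate 0.40, SE 0.11, edgeR adjusted p = 0.0782). Tnfrsf4 had -0.38 and -0.28 (-0.33, SE 0.10, edgeR adjusted p = 0.0933). Tnfrsf10b, the mouse death receptor for TRAIL, had -0.43 and -0.67 (-0.55, SE 0.15, edgeR adjusted p = 0.0784). Cd27 had 2121 counts with Tox2 and 1312 with GFP in Tfh-like, and 1578 with Tox2 and 1496 with GFP in Th0. Its log2 fold was 0.66 in Tfh-like (counting interval 0.56 to 0.76) and 0.03 in Th0 (-0.07 to 0.13), and its joint estimate of 0.34 had an SE of 0.16. Tnfrsf13b, encoding TACI, stayed between 26.8 and 27.4 FPKM in the 4 libraries and had log2 folds of 0.01 and -0.04.

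Of the 13 ligands 3 fell and 1 rose with Tox2, against 2.74% and 4.07% of all genes. The median log2 fold was -0.39 over the ligands and 0.18 over the receptors, against 0.00 over all genes tested. Cd70, the ligand of CD27, had 3 counts with Tox2 and 23 with GFP in Tfh-like, and 26 with Tox2 and 94 with GFP in Th0. It fell by 2.14 on the log2 scale (SE 0.38, edgeR adjusted p = 0.0284). The 3 counts in Tfh-like with Tox2 make that fold imprecise, with a log2 fold of -2.36 and a counting interval of -5.35 to -1.25. Fasl, the death ligand of Fas, had 71 counts with Tox2 and 119 with GFP in Tfh-like, and 215 with Tox2 and 523 with GFP in Th0. Its log2 fold was -0.76 in Tfh-like (-1.23 to -0.34) and -1.32 in Th0 (-1.57 to -1.10), -1.10 over both (SE 0.19, edgeR adjusted p = 0.0271). Tnfsf14 encodes LIGHT, a ligand of HVEM and the lymphotoxin beta receptor. Its counts were 650 with Tox2 and 1287 with GFP in Tfh-like, and 516 with Tox2 and 1018 with GFP in Th0. Both Tox2 libraries lay below both GFP libraries, with log2 folds of -1.02 in each culture (over both -1.02, SE 0.10, edgeR adjusted p = 0.00557). Tnfsf10, encoding the death ligand TRAIL, went the other way, with 1662 counts with Tox2 and 752 with GFP in Tfh-like, and 1622 with Tox2 and 1054 with GFP in Th0. Both Tox2 libraries lay above both GFP libraries, and the log2 fold was 1.11 in Tfh-like (0.98 to 1.23) and 0.57 in Th0 (0.46 to 0.69), 0.84 over both (SE 0.15, edgeR adjusted p = 0.0277). The call for Cd70 was lost with DESeq2 (log2 fold -2.33, adjusted p = 0.0664) and with the length trend removed (-1.95, edgeR adjusted p = 0.0604), as was that for Tnfsf10 with the length trend removed (0.80, edgeR adjusted p = 0.0559).

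Of the ligands that did not pass, Tnf, the founding cytokine, came nearest. It had 444 counts with Tox2 and 549 with GFP in Tfh-like, and 374 with Tox2 and 666 with GFP in Th0, a log2 fold over both of -0.61 (SE 0.15, edgeR adjusted p = 0.0635). With DESeq2 size factors it passed (edgeR adjusted p = 0.0494), as it did with library totals (0.0339). Tnfsf13b had 143 counts with Tox2 and 62 with GFP in Tfh-like, and 45 with Tox2 and 27 with GFP in Th0 (0.97, SE 0.27, edgeR adjusted p = 0.0803). Lta, the soluble lymphotoxin subunit, had 315 counts with Tox2 and 391 with GFP in Tfh-like, and 369 with Tox2 and 482 with GFP in Th0. Lta had log2 folds of -0.35 and -0.43, Tnfsf9, encoding 4-1BB ligand, -0.18 and -0.59, and Tnfsf4, encoding OX40 ligand, 0.66 and 0.16 in Tfh-like and Th0. Cd40lg had 0.14 in Tfh-like and 0.02 in Th0, and both counting intervals included 0. None of the 7 adaptors passed for Tox2 with edgeR, DESeq2 or limma-voom, and 1 had an unadjusted p under 0.05 in edgeR. That was Traf3, a brake on non-canonical NF-kB, with log2 folds of 0.20 in Tfh-like and 0.57 in Th0 (joint estimate 0.39, SE 0.12). Traf6, which links TNF and interleukin-1 receptors to NF-kB, had 0.26 (SE 0.15), and Traf1, Traf2, Traf5, Tradd and Fadd had joint estimates from -0.24 to 0.23.

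In single pairs, 6 members were 2-fold apart with Tox2 in Tfh-like, where 4.75% of all genes were, and 5 in Th0, against 4.74%. Here 2-fold apart means a log2 fold of at least 1 in size whose counting interval excludes 0. In Tfh-like 3 were higher (Tnfrsf1a, Tnfsf10 and Tnfsf13b) and 3 lower (Cd70, Tnfrsf8 and Tnfsf14), where 2.86% and 1.90% of all genes were. In Th0 Tnfrsf1a was higher and Cd70, Fasl, Tnfrsf8 and Tnfsf14 were lower, where 3.18% and 1.56% of all genes were. The Tox2 fold differed at least 2-fold between the cultures in 1 member, against 3.73% of all genes. This was Tnfrsf21, at 13 to 49 counts per library, with a difference of -1.22 (Tfh-like minus Th0, counting interval -2.29 to -0.14). Tnfsf11 came next, with a log2 fold of -0.10 in Tfh-like and -0.92 in Th0, a difference of 0.82 (0.69 to 0.95).

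**Figure D2:**
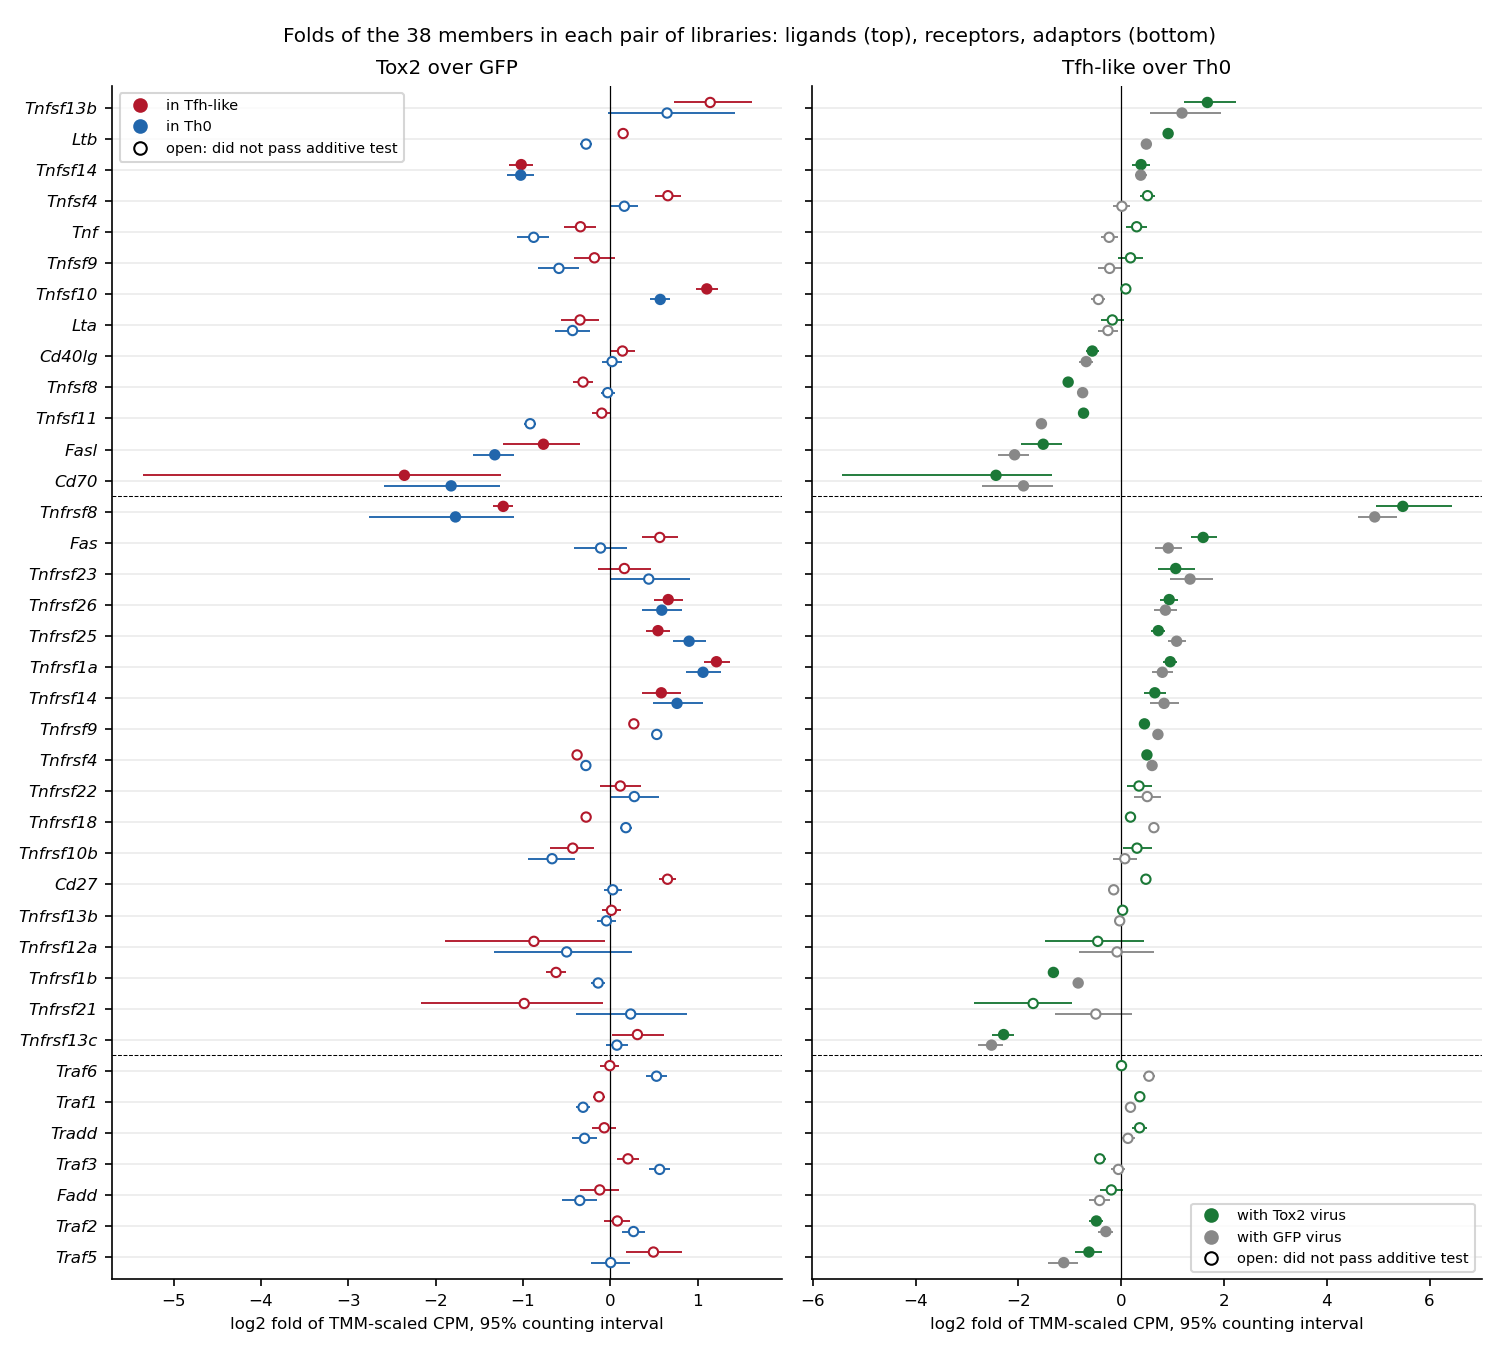
Log2 folds of TMM-scaled CPM of the 38 members in each pair of libraries, with 95% counting intervals, for Tox2 over GFP (left) and Tfh-like over Th0 (right), with filled points for members that passed the additive test. Tnfrsf8 stands far to the right for the culture, at 5.48 with Tox2 and 4.93 with GFP, and to the left for Tox2, at -1.23 in Tfh-like and -1.77 in Th0.

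The second comparison asked which members differed between the cultures with and without IL-6, over both viruses. It shares all 4 libraries with the first. Of 38 members 21 passed, where 24.2% of all genes did. These were 12 that rose and 9 that fell, where 14.3% and 9.96% of all genes did. Of the 18 receptors 9 rose and 2 fell, of the 13 ligands 3 rose and 5 fell, and of the 7 adaptors 2 fell. The median log2 fold was 0.49 over the receptors, -0.17 over the ligands and -0.24 over the adaptors, against -0.01 over all genes tested.

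Tnfrsf8 had the largest change of any member. Its counts were 818 in Tfh-like and 17 in Th0 with Tox2, and with GFP 1868 in Tfh-like and 61 in Th0. Both Tfh-like libraries lay far above both Th0 libraries, a 36.5-fold rise (log2 fold 5.19, SE 0.17, edgeR adjusted p = 3.90e-05). Tnfrsf8 rose with the culture and fell with the Tox2 virus, so its highest level, 33.2 FPKM, was in Tfh-like with GFP. Fas, the death receptor that limits activated T cells (chromosome 19, 34290666 to 34327772, plus strand), had 516 counts in Tfh-like and 176 in Th0 with Tox2, and with GFP 339 in Tfh-like and 184 in Th0. The log2 fold over both was 1.27 (SE 0.19, edgeR adjusted p = 0.00526). Tnfrsf1a also rose with the culture by 0.88 (SE 0.11, edgeR adjusted p = 0.00230), and its level was highest where both were present, at 29.4 FPKM, against 7.08 FPKM in Th0 with GFP. Tnfrsf25, Tnfrsf26 and Tnfrsf14 were likewise highest in Tfh-like with Tox2 and lowest in Th0 with GFP. They rose with the culture by 0.89 (SE 0.12), 0.90 (SE 0.11) and 0.74 (SE 0.14), of which the last was not called by DESeq2 (0.74, adjusted p = 0.0636). Of 5 receptors with a death domain 3 rose with the culture and 2 with Tox2, against 14.3% and 4.07% of all genes. None of the 5 passed as fallen, but Tnfrsf21, at 13 and 49 counts in Tfh-like and Th0 with Tox2 and 27 and 40 with GFP, had -1.13 for the culture (SE 0.41, edgeR adjusted p = 0.0939). With library totals it passed as fallen (-1.20, edgeR adjusted p = 0.0489), while over the alternatives the adjusted p ran up to 0.395 with DESeq2.

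The costimulatory receptors Tnfrsf4 and Tnfrsf9 rose less. Tnfrsf4 had 6463 counts in Tfh-like and 4743 in Th0 with Tox2, and with GFP 8200 in Tfh-like and 5568 in Th0 (log2 fold 0.55, SE 0.10, edgeR adjusted p = 0.00976). Tnfrsf9 had 8406 and 6379 counts in Tfh-like and Th0 with Tox2, and 6796 and 4265 with GFP (0.58, SE 0.11, edgeR adjusted p = 0.0115). Tnfrsf18 had 4105 and 3761 counts in Tfh-like and Th0 with Tox2, and 4848 and 3213 with GFP. It had log2 folds of 0.18 with Tox2 and 0.64 with GFP and did not pass (edgeR adjusted p = 0.0682). The list of 8 T-cell costimulatory receptors holds Tnfrsf4, Tnfrsf8, Tnfrsf9, Tnfrsf14, Tnfrsf18, Tnfrsf25, Cd27 and Tnfrsf1b. Of these 5 rose and 1 fell with the culture, against 14.3% and 9.96% of all genes, and 2 rose and 1 fell with Tox2, against 4.07% and 2.74%. The decoy receptor gene Tnfrsf23 had 201 and 99 counts in Tfh-like and Th0 with Tox2, and 175 and 70 with GFP. It rose by 1.21 (SE 0.20), and its neighbour Tnfrsf22 had 0.43 (SE 0.14, edgeR adjusted p = 0.0787). These are close copies that also share an antisense gene with Tnfrsf26, and the strand setting is not known, so the division of reads among the 3 is uncertain.

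Of the receptors, 2 fell with the culture. Tnfrsf13c, encoding the BAFF receptor (chromosome 15, 82221743 to 82224369, minus strand), had 213 counts in Tfh-like and 1089 in Th0 with Tox2, and with GFP 167 in Tfh-like and 999 in Th0. It fell by 2.42 on the log2 scale (SE 0.12, edgeR adjusted p = 0.000157), while its log2 fold with Tox2 was 0.31 in Tfh-like and 0.08 in Th0. The BAFF receptor is best known from B cells. Of 8 B-cell markers 2 were measured: Cd79a had 13 and 24 counts in Tfh-like and Th0 with Tox2 and 10 and 19 with GFP, and Ebf1 had 385 and 118 with Tox2 and 380 and 20 with GFP. Their summed level was 29.7 and 10.2 CPM in Tfh-like and Th0 with Tox2 and 29.9 and 2.90 CPM with GFP. Ebf1 was higher in Tfh-like with either virus, while Cd79a, like Tnfrsf13c, was lower there. Their part in the result was not tested. The other 6 markers were not analysed here. Tnfrsf1b encodes TNFR2, the TNF receptor without a death domain that is typical of activated and regulatory T cells. It had 1011 counts in Tfh-like and 2624 in Th0 with Tox2, and with GFP 1517 in Tfh-like and 2794 in Th0. Its log2 fold was -1.32 with Tox2 (counting interval -1.43 to -1.22) and -0.84 with GFP (-0.93 to -0.75), and -1.08 over both (SE 0.14, edgeR adjusted p = 0.00294). The 2 TNF receptors thus moved in opposite directions with the culture.

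**Figure D3:**
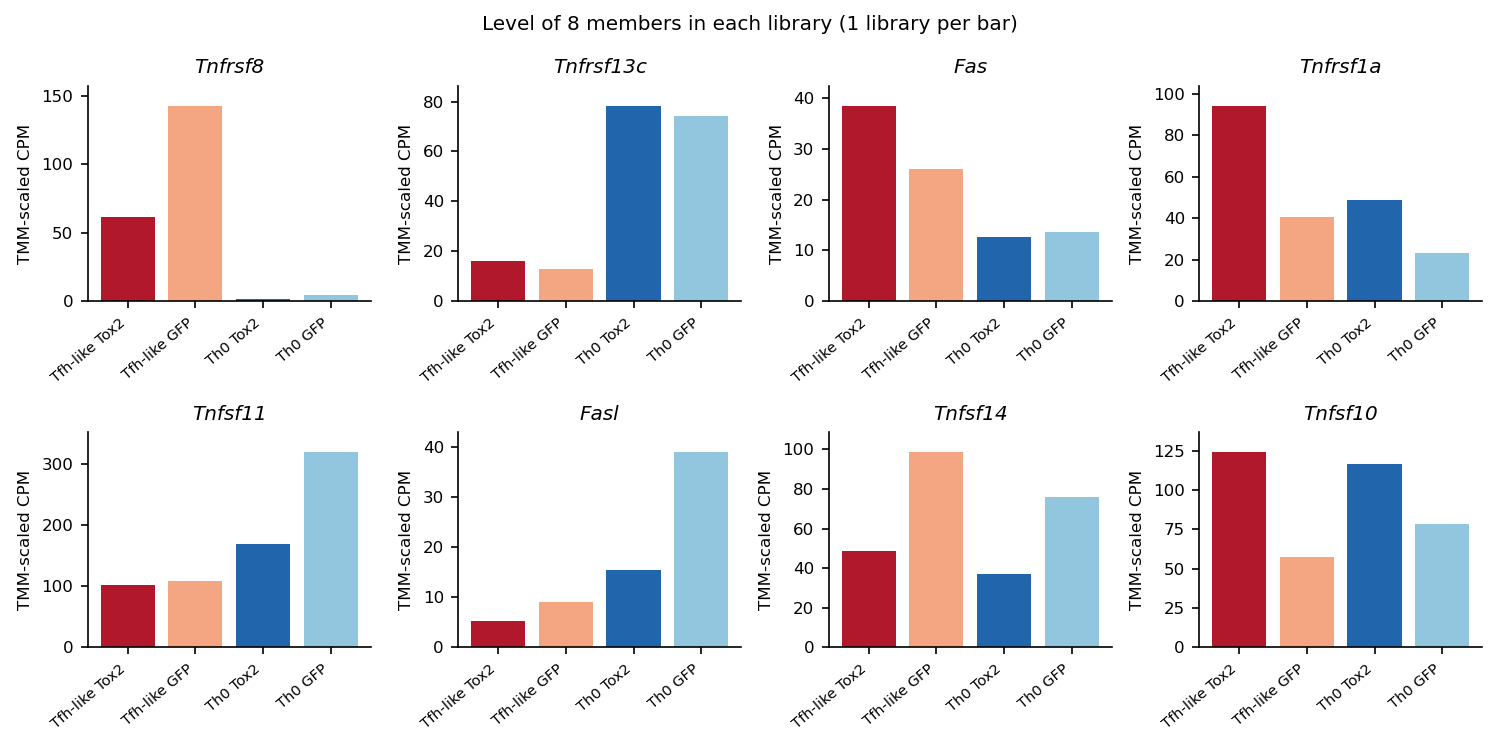
TMM-scaled CPM of 8 members in each library, 1 library per bar, from Tfh-like with Tox2 on the left to Th0 with GFP on the right. The bars of Tnfrsf8, Fas and Tnfrsf13c separate by culture, and those of Tnfsf14 and Tnfsf10 by virus. In the additive test Tnfrsf8 also fell with Tox2, and Tnfsf14 also rose with the culture. Tnfrsf1a is highest, at 94.4 CPM, in Tfh-like with Tox2, against 23.2 CPM in Th0 with GFP.

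Among the ligands, 5 fell with the culture. Fasl had 71 counts in Tfh-like and 215 in Th0 with Tox2, and with GFP 119 in Tfh-like and 523 in Th0, a log2 fold over both of -1.84 (SE 0.19, edgeR adjusted p = 0.00146). Its level in Th0 with GFP, 15.9 FPKM, was the highest, and that in Tfh-like with Tox2, 2.21 FPKM, the lowest. Of 4 NK-cell markers 2 were measured, and their summed level was 7.25 and 21.7 CPM in Tfh-like and Th0 with Tox2 and 4.60 and 8.03 CPM with GFP. The markers ran opposite ways: Eomes had 48 and 284 counts in Tfh-like and Th0 with Tox2 and 6 and 85 with GFP, and Klrd1 had 49 and 18 with Tox2 and 54 and 23 with GFP. Their part in the result for Fasl was not tested. Cd70 fell by 2.24 (SE 0.38, edgeR adjusted p = 0.00824). Tnfsf11, encoding RANKL (chromosome 14, 78277445 to 78308043, minus strand), had 1363 counts in Tfh-like and 2354 in Th0 with Tox2, and with GFP 1422 in Tfh-like and 4301 in Th0. Its log2 fold was -0.73 with Tox2 (-0.83 to -0.64) and -1.55 with GFP (-1.64 to -1.47), -1.15 over both (SE 0.19, edgeR adjusted p = 0.00772). Tnfsf8, encoding CD30 ligand, had 1221 and 2596 counts in Tfh-like and Th0 with Tox2 and 1478 and 2563 with GFP, and fell by 0.89 (SE 0.11, edgeR adjusted p = 0.00289). Cd40lg had 823 and 1263 counts in Tfh-like and Th0 with Tox2 and 728 and 1204 with GFP. It fell by 0.62 (SE 0.10, edgeR adjusted p = 0.00739), so the ligand by which T cells help B cells was lower in the culture with IL-6 with either virus.

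Ltb, Tnfsf14 and Tnfsf13b were the ligands that rose. Ltb had 6378 counts in Tfh-like and 3516 in Th0 with Tox2, and with GFP 5614 in Tfh-like and 4119 in Th0 (log2 fold 0.70, SE 0.13, edgeR adjusted p = 0.0105), with both Tfh-like libraries above both Th0 libraries. Tnfsf13b, at 27 to 143 counts per library, rose by 1.51 (SE 0.27, edgeR adjusted p = 0.00976). Tnfsf14 rose by 0.38 (SE 0.10, edgeR adjusted p = 0.0353), a call lost with DESeq2 (0.37, adjusted p = 0.225) and with library totals (0.31, edgeR adjusted p = 0.0606). Tnf, Lta, Tnfsf4, Tnfsf9 and Tnfsf10 did not pass. Of these Tnf had 0.30 with Tox2 and -0.24 with GFP. Traf5 and Traf2 were the adaptors that fell. Traf5, an adaptor of OX40 and CD27, had 206 and 332 counts in Tfh-like and Th0 with Tox2 and 142 and 320 with GFP (-0.88, SE 0.18, edgeR adjusted p = 0.0147). Traf2, the main bridge from TNF receptors to ubiquitin ligases and NF-kB, had 775 and 1126 counts in Tfh-like and Th0 with Tox2 and 714 and 905 with GFP. It fell by 0.39 (SE 0.11, edgeR adjusted p = 0.0392), which DESeq2 did not call (-0.40, adjusted p = 0.179).

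In single pairs, 10 members were 2-fold apart between the cultures with Tox2, where 9.43% of all genes were, and 9 with GFP, against 10.9%. With Tox2 4 were higher and 6 lower, against 6.56% and 2.86% of all genes. With GFP 4 were higher and 5 lower, against 7.78% and 3.11%. Cd70, Fasl and Tnfrsf13c were lower and Tnfrsf8, Tnfrsf23 and Tnfsf13b higher in both pairs. Fas had a log2 fold of 1.59 with Tox2 and 0.92 with GFP, and Tnfrsf25 one of 0.72 with Tox2 and 1.08 with GFP.

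Ligand and receptor were set side by side for 11 known pairs of 9 ligands and 11 receptors. With the culture, Fas rose while Fasl fell, and Tnfrsf8 rose while Tnfsf8 fell. Tnfsf14 (0.38) and Tnfrsf14 (0.74) both rose. Tnfsf13b rose while Tnfrsf13c fell, whereas Tnfrsf13b, the other BAFF receptor in the list, had a log2 fold of -0.002 (SE 0.10) and did not pass. Tnfrsf4 and Tnfrsf9 rose while their ligands Tnfsf4 (0.27, SE 0.14) and Tnfsf9 (-0.03, SE 0.15) did not pass, and Cd70 fell while Cd27 (0.17, SE 0.16) did not pass. With Tox2, Tnfsf14 fell and Tnfrsf14 rose. Fasl fell while Fas (0.26, SE 0.19) did not pass, and Cd70 fell while Cd27 (0.34, SE 0.16) did not pass. The calls for Tnfrsf14 and Cd70 were lost with DESeq2 and with the length trend removed. Tnfrsf8 fell while Tnfsf8 (-0.17, SE 0.11) did not pass. In the TRAIL pair Tnfsf10 rose and Tnfrsf10b did not pass, and in the TNF pairs Tnfrsf1a rose while Tnf and Tnfrsf1b (-0.37, SE 0.14) did not pass.

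**Figure D4:**
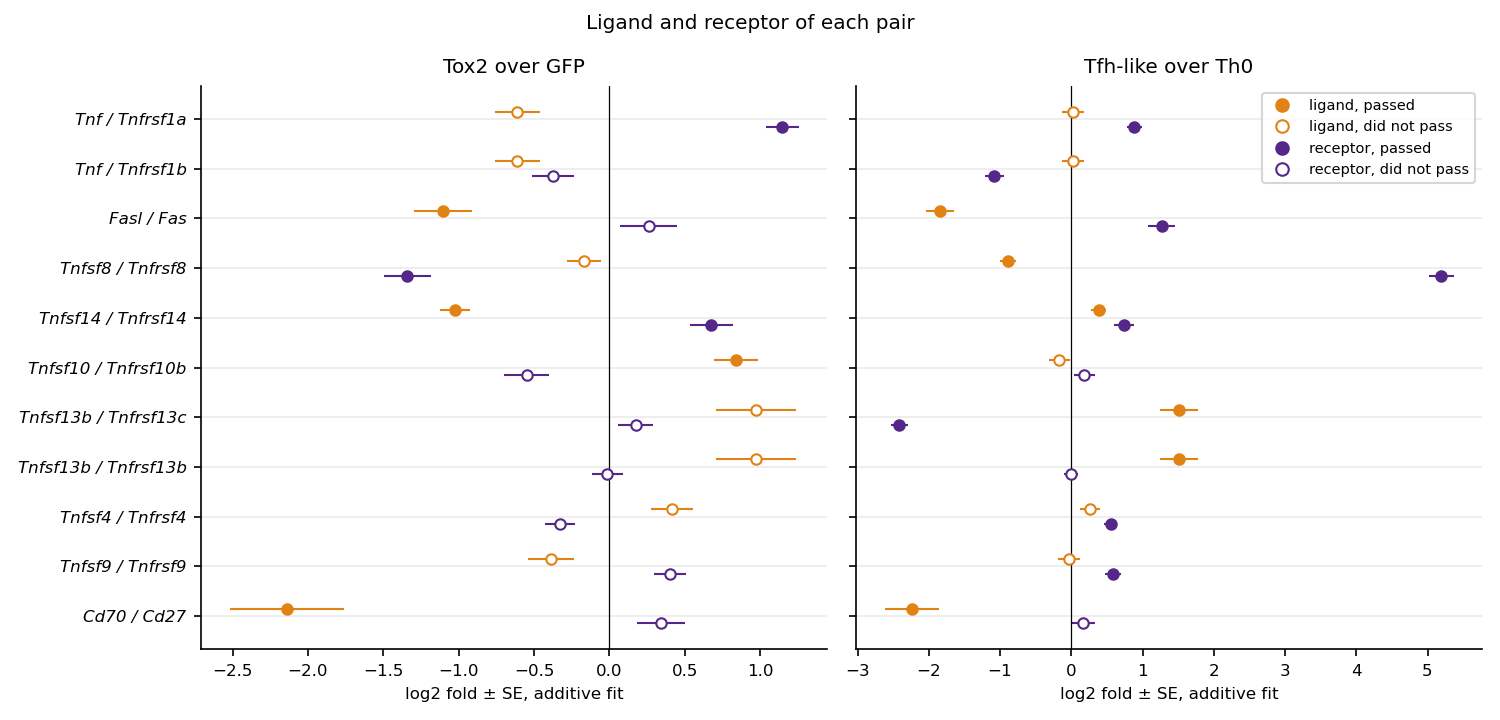
Log2 fold with SE from the additive fit for the ligand and the receptor of 11 pairs, for Tox2 over GFP (left) and Tfh-like over Th0 (right), filled where the gene passed the test. For the culture, Fasl (-1.84) and Fas (1.27) lie on opposite sides of 0, as do Tnfsf8 (-0.89) and Tnfrsf8 (5.19).

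Many members lie beside each other in the genome, which the choice by name did not use. With gaps of at most 150 kb they formed 6 groups. On chromosome 4, Tnfrsf8 and Tnfrsf1b lie 20267 bases apart, and with the culture Tnfrsf8 rose by 5.19 while Tnfrsf1b fell by 1.08. Tnfrsf4 and Tnfrsf18, 9552 bases apart on the same chromosome, had 0.55 and 0.41, of which the first passed. On chromosome 17, within 35194439 to 35205351, Ltb rose by 0.70 with the culture while Tnf (0.02, SE 0.15) and Lta (-0.22, SE 0.12) did not pass. On the same chromosome, within 57105325 to 57194177, Cd70 and Tnfsf14 both fell with Tox2, but with the culture Cd70 fell and Tnfsf14 rose, and Tnfsf9 passed for neither, at -0.39 (SE 0.15) for Tox2 and -0.03 (SE 0.15) for the culture. On chromosome 7, within 143607659 to 143685872, Tnfrsf26, Tnfrsf22 and Tnfrsf23 had 0.90, 0.43 and 1.21 for the culture. Cd27 and Tnfrsf1a on chromosome 6 had 0.34 and 1.15 for Tox2. Neighbours thus did not share a direction with the culture in each group. With Tox2, the joint estimates had the same sign within each of the 6 groups, but most of these genes did not pass. Tnfrsf8 and Tnfrsf1b had -1.34 and -0.37, and Tnfrsf4 and Tnfrsf18 -0.33 and -0.05 (SE 0.13 for Tnfrsf18). Ltb, Tnf and Lta had -0.06, -0.61 and -0.39 (SE 0.13 for Ltb), and Tnfrsf26, Tnfrsf22 and Tnfrsf23 had 0.63, 0.20 and 0.29. Within single cultures the sign was not always shared. In Tfh-like, Ltb had 0.15 with Tox2 while Tnf had -0.34 and Lta -0.35. In Th0, Tnfrsf18 had 0.18 while Tnfrsf4 had -0.28. Whether position plays a part was not tested.

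Downstream of the receptors, 38 genes of TNF receptor signalling outside the family were listed and all were tested. With Tox2, 1 of 38 passed, or 2.63%, against 6.81% of all genes. This was Traf3ip3, which rose by 0.47 (SE 0.10, edgeR adjusted p = 0.0417) and was not called by DESeq2 or with the length trend removed. With the culture 9 rose and 7 fell, or 42.1%, against 24.2% of all genes. DESeq2 called 4 of the 38 up and 5 down, and over all 10960 genes 1063 up and 556 down. Map3k14, encoding the NF-kB-inducing kinase NIK, rose by 0.89 (SE 0.11) and Ripk1, the kinase recruited by TNFR1, by 0.71 (SE 0.11). Birc2 and Birc3, the cIAP ubiquitin ligases bound to TRAF2, rose by 0.53 (SE 0.10) and 0.46 (SE 0.11). Rel, encoding the NF-kB subunit c-Rel, fell by 1.05 (SE 0.14), with 1458 counts in Tfh-like and 3720 in Th0 with Tox2, and with GFP 1295 in Tfh-like and 2326 in Th0. Nfkb1 fell by 0.52 (SE 0.10), Bid, which links caspase-8 to mitochondria, by 1.17 (SE 0.18) and Adam10, a sheddase that cleaves several TNF family proteins, by 0.72 (SE 0.11). Casp8 (0.10, SE 0.10) and Cflar (0.02, SE 0.10), which act next to FADD, did not pass.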

How the data were processed

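The 4 RNA-seq libraries are 1 per group. The authors deposited whole-number read counts per gene, not normalized, as the values and the file headers show. FPKM per gene is also deposited, whose library scaling is theirs, per the file headers. FPKM was used for levels between genes, and count over FPKM gave each gene's relative length. Per the submitters' processing notes the build is mm10, and the tools include Bowtie2, Trim Galore 0.4.4, Subread, featureCounts, MACS2 and edgeR, with no roles stated. Neither the annotation nor the strandedness of counting is stated in the sources used here, so overlapping genes may share reads. Cd27, Tnfrsf9, Traf3, Fadd, Tnfrsf18 and the Tnfrsf22 cluster overlap genes on the other strand, as do Tnfsf13b, Tnfrsf13b, Tnfsf9, Traf2 and Traf5. Columns of other samples numbered 0.

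TMM scaling used all genes listed (factors 0.966 to 1.03). A gene was tested if any library reached a CPM of 1, which left 10960 genes. The test was edgeR's quasi-likelihood test (4.0.16, R 4.3.3), in an additive fit of culture and virus (glmQLFit in its legacy form). Adjusted p-values are Benjamini-Hochberg, called under 0.05. The common biological coefficient of variation was 0.105 and the median prior degrees of freedom 5.52. The SE is the log2 fold over the root of F. No p here measures the spread between replicates or animals. Pairs were described by log2 folds with a prior count of 2 and exact 95% binomial intervals conditional on the summed count, for counting error only (no molecular identifiers are stated). The difference of folds has a delta-method interval. The procedure was run on simulated counts, with a Tox2 log2 fold of 1.5 in size for 200 genes and a coefficient of variation of 0.1. The simulation held no smaller folds and no difference of the Tox2 fold between cultures, so it does not cover those cases. Alternatives were DESeq2 1.42.0, limma-voom 3.58.1, other scalings, filters and prior counts, and removal of each library's trend with gene length.

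Members and lists were chosen with earlier results of these data known. Full values are given for members that passed the test, for those 2-fold apart in a pair at a CPM of at least 5, and for Tnfrsf4, Tnfrsf9, Tnfrsf18, Tnfrsf25, Cd27, Cd40lg, Fasl, Tnf, Lta, Ltb and Fas. Other genes were named as exceptions after their values were seen. Positions are from GENCODE M21 (GRCm38, the assembly called mm10) and promoters from RefSeq (GRCm38.p6), where the bases after the start matched a GENCODE transcript in 31 of 33 windows.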

Additional observations from a re-analysis of the deposited data

Results flagged for a closer look

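Ltb had a log2 fold with Tox2 of 0.15 in Tfh-like and -0.28 in Th0, with counting intervals on opposite sides of 0, a difference of 0.42 (counting interval 0.34 to 0.51). Tnfrsf18 had -0.28 in Tfh-like and 0.18 in Th0, a difference of -0.46 (-0.55 to -0.36). They stand out because the direction differs between the cultures. Each rests on 1 pair of libraries per culture, and the difference was not tested.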

How the results depend on the processing

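For 33 log2 folds of members from the additive fit, 230 values under 7 alternatives were compared and none changed direction; 216 kept their side of the threshold, 10 lost the call and 4 gained it. Of 31 pair folds that were 2-fold apart, 178 of 184 values kept the call and 6 lost it, with none reversed. For Tox2, 3 and not 5 members were called as risen with DESeq2 and 3 with the length trend removed. Over all genes, Tox2 gave 1193 calls with library totals, 492 with DESeq2 and 430 with the length trend removed, against 746, and the culture 1619 with DESeq2, against 2656. The Tox2 fold was correlated with gene length across genes, which are not independent replicates, by a Spearman rho of 0.301 in Th0 and 0.125 in Tfh-like. The 1 member whose Tox2 folds were 2-fold apart between the cultures, Tnfrsf21, was lost with a prior count of 10 (0 members) and at a CPM of at least 5 (0 members). The cause of these changes was not tested. Leaving out a library leaves no residual degree of freedom, so no such fit was made. No paired analysis was possible because each group has 1 library. Depth limits most the members with the lowest counts in a library: Cd70 with 3, Tnfrsf21 with 13, Tnfrsf8 and Tnfrsf12a with 17 and Tnfsf13b with 27.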
